A study of Danio rerio with 15 samples.

Results

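The importin beta family and transportins are described here through 8 genes of the zebrafish embryo, kpnb1, tnpo1, tnpo3, ipo4, ipo7, ipo8, ipo9 and ipo11. They were chosen by name, as the rows of the expression table that carry these symbols, and each symbol had 1 row among 23726 genes. All 8 were read in each of 15 libraries of poly(A) RNA from dechorionated whole embryos. MZnup133 embryos carry a knockout of nup133, a scaffold gene of the nuclear pore, and were sampled at 3, 4 and 4.5 hours post fertilization (hpf). Melys embryos carry a knockout of elys, which zebrafish nomenclature calls ahctf1 and whose product seeds pore assembly on chromatin, and Tgnup133 embryos overexpress nup133 from a transgene. Both were sampled at the same 3 stages. By naming convention MZ marks maternal-zygotic and M maternal mutants, so the MZnup133 and Melys knockouts may not be of the same kind. Wildtype embryos supplied 2 libraries per stage, 1 named as the control for MZnup133 and Tgnup133 (nup133 set) and 1 named as the control for Melys (elys set). Each mutant or transgenic line had 1 library per stage, so the stages stand in for repeats. The labels do not say which promoter drives the transgene, how many embryos were pooled, or which libraries came from separate clutches. MZnup133 and Tgnup133 are set against the same wildtype libraries. The p-values over 3 stages measure how far the differences of the lines from wildtype varied between stages, so a trend over stages counts as spread. Those of single stages rest on the spread between the wildtype libraries, which may be technical.

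Nuclear import receptors of this family bind cargo in the cytoplasm, pass the pore by touching its FG nucleoporins, and release the cargo in the nucleus when the small GTPase Ran, loaded with GTP, binds them. Kpnb1 (importin beta) mostly carries proteins through an importin alpha adaptor, whereas the transportins and the numbered importins bind their cargo directly. In the early embryo these receptors and their transcripts are supplied by the mother, and import of histones, splicing factors and transcription regulators accompanies the switch to transcription from the embryo's own genome.

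The values are FPKM, sequenced fragments corrected for transcript length and library size, so levels can be set side by side between genes. Their precision is not known, since read depth was not given. The spacing of the lowest values gave estimated depths that differed by up to 1.79 times between libraries, which is an estimate and not a bound. The labelled tissue was read from markers of early embryos, of which 10 of 10 exceeded 1 FPKM in some library and whose sum was 2247 to 3422 FPKM in each library. Of 8 measured rows for markers of differentiated tissue and blood, 4 exceeded 1 FPKM in some library. The 8 summed to 0 to 8.18 FPKM in each library. The transcript of nup133 was at 0 to 0.431 FPKM in MZnup133 and 9.35 to 13.1 FPKM in wildtype. It was at 16.4 to 18.4 FPKM in Tgnup133. The transcript of ahctf1 was at 13.5 to 25.8 FPKM in Melys and 18.7 to 28.2 FPKM in wildtype, so RNA level does not check that label. Mitochondrially encoded genes took 5.10% to 6.53% of the FPKM sum in MZnup133, 4.76% to 5.31% in Melys, 7.39% to 8.79% in Tgnup133 and 7.29% to 10.23% in wildtype. Scaling each library to the same FPKM sum without these genes moved the median log2 difference over all genes in MZnup133 over 3 stages from 0.147 to 0.165. The same median moved from 0.073 to 0.066 in Melys and from -0.036 to -0.051 in Tgnup133. The part of this share in the differences below was not otherwise tested. In whole embryos, fewer cells of a type and less RNA per cell cannot be told apart.

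In wildtype embryos the 8 receptors spanned a wide range of transcript levels, and the order is a description. Transportin 3 (tnpo3, ENSDARG00000045680), which in mammalian cells carries serine- and arginine-rich splicing factors, was the most abundant at 208 ± 22.7 FPKM (SD, n = 6 libraries over 3 stages). A middle group held 4 receptors of similar level. Importin 4 (ipo4, ENSDARG00000041493), a carrier of core histones in mammalian cells, averaged 58.4 ± 7.71 FPKM. The general carrier kpnb1 (ENSDARG00000104889) averaged 52.5 ± 7.61 FPKM. Importin 9 (ipo9, ENSDARG00000016753), which carries the histone dimer of H2A with H2B in mammalian cells, averaged 47.8 ± 7.92 FPKM. Importin 7 (ipo7, ENSDARG00000035751), in mammalian cells a carrier of ribosomal proteins and, together with importin beta, of linker histone, averaged 46.6 ± 12.6 FPKM. The lowest group began with importin 11 (ipo11, ENSDARG00000054224) at 14.8 ± 2.63 FPKM, a carrier of ubiquitin-conjugating enzymes in mammalian cells. Transportin 1 (tnpo1, ENSDARG00000035390), which binds the PY-type signal of many RNA-binding proteins, averaged 12.5 ± 3.05 FPKM. Importin 8 (ipo8, ENSDARG00000058159), the close relative of ipo7, averaged 3.15 ± 1.34 FPKM. How the authors' counting treated fragments that match both close relatives is not known, so ipo8 and ipo7 may share some. Neighbours in this order had separate wildtype ranges at 3 places only, between tnpo3 and ipo4, between ipo7 and ipo11, and between tnpo1 and ipo8. The summed level of the 8 receptors stayed within 409 to 441 FPKM in MZnup133, 404 to 474 FPKM in Melys, 414 to 430 FPKM in Tgnup133 and 398 to 467 FPKM in wildtype.

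**Figure D1:**
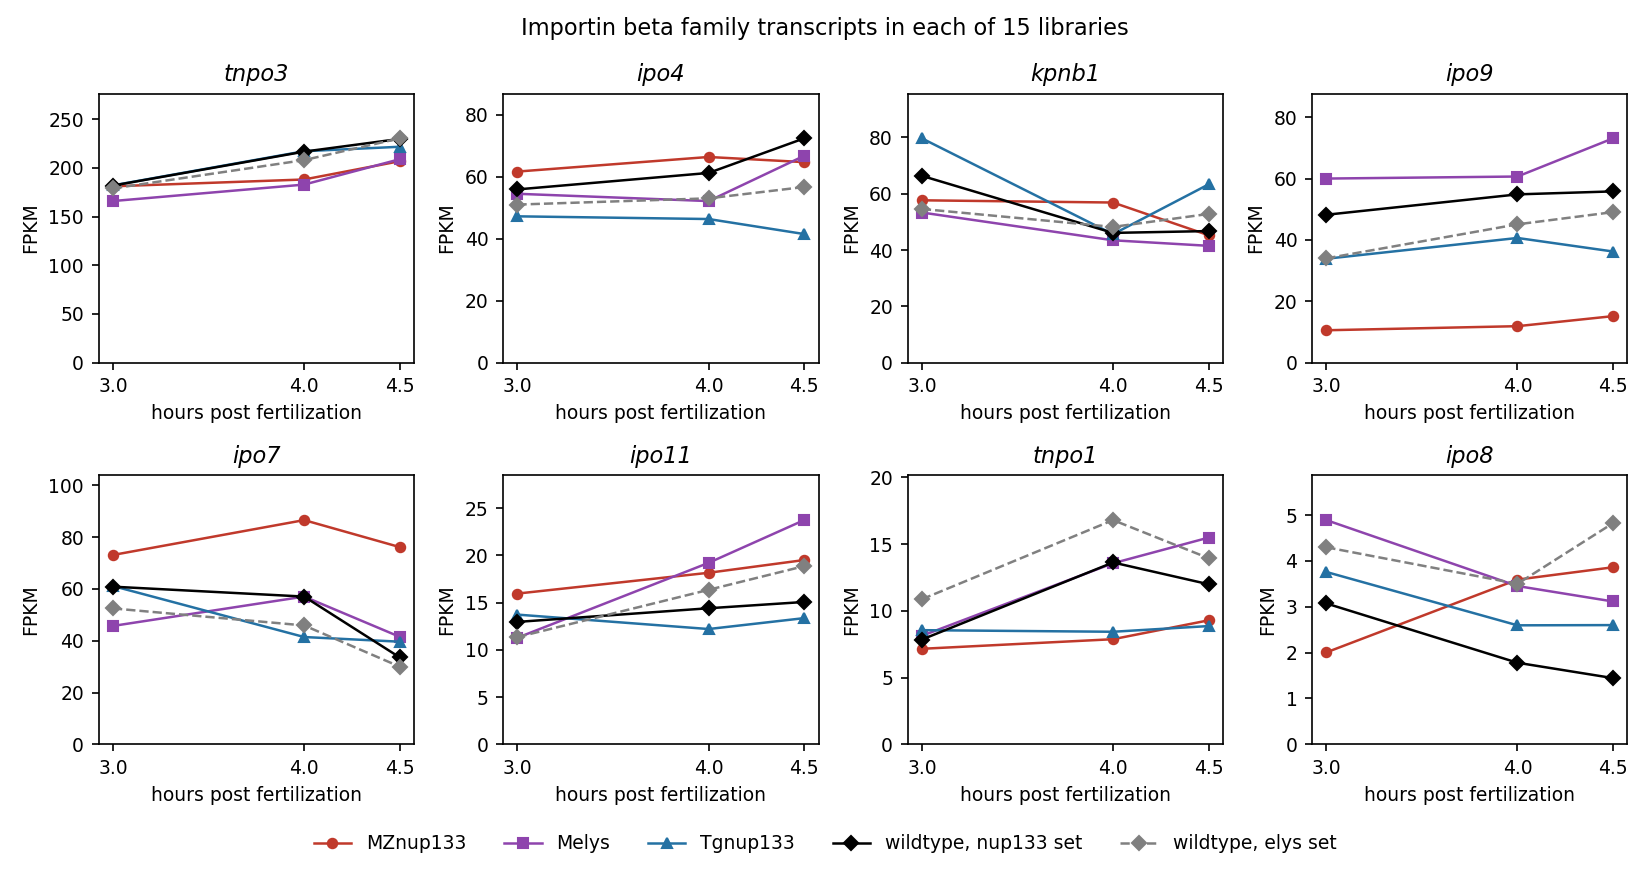
FPKM (vertical axes, each starting at 0) of the 8 receptors against hours post fertilization, 1 point per library, with lines joining the 3 stages of a line or of a wildtype control set. The MZnup133 points of ipo9 lie at 10.5 to 15.1 FPKM, under every other library, and those of ipo7 lie at 73.1 to 86.6 FPKM, over every other library.

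Other import receptors of the family were counted from a list of 9 symbols, 5 of which had a row and 4 of which averaged at least 1 FPKM over the 15 libraries, as genes had to in order to be tested. The transcript of tnpo2, the close relative of tnpo1, was the most abundant of the 12 tested receptors at 324 ± 41.8 FPKM in wildtype (SD, n = 6). The gene kpnb3, which the reference gene table names IPO5 and whose mammalian counterpart carries ribosomal proteins and histones, followed at 262 ± 44.0 FPKM. Both exceeded tnpo3 on average.

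Loss of nup133 coincided with a lower ipo9 transcript at every stage. It was at 10.5, 11.9 and 15.1 FPKM in MZnup133 embryos at 3, 4 and 4.5 hpf. Wildtype embryos had 48.2, 54.8 and 55.8 FPKM in the nup133 set and 34.0, 45.1 and 49.0 FPKM in the elys set. All 3 MZnup133 values lay below all 6 wildtype values, as they did for 6.76% of the 13493 genes tested. Over 3 stages the difference on the log2(FPKM + 1) scale was -2.01 ± 0.13 (SE; 95% interval -2.31 to -1.71), a level 4.02-fold lower, with an adjusted p of 1.9e-05 in limma's moderated test. At single stages it was -2.0, -2.14 and -1.88 at 3, 4 and 4.5 hpf, with adjusted p-values of 0.023, 0.015 and 0.016 in limma. The difference was present at 3 hpf, the earliest stage sampled, and the change from 3 to 4.5 hpf did not differ detectably from wildtype (0.12 ± 0.22, adjusted p = 0.77). The 3-stage call held when any wildtype library or any stage was left out. The single-stage calls each rest on 1 MZnup133 library. With any 1 of the 6 wildtype libraries left out, the differences were -2.18 to -1.82. No gene was then called at a single stage in MZnup133, so the loss of these calls is not particular to ipo9.

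Melys embryos had more ipo9 transcript than wildtype. They held 60.0, 60.6 and 73.1 FPKM at 3, 4 and 4.5 hpf, all above the 6 wildtype values, which reached 55.8 FPKM. Among the genes tested, 9.01% had all Melys values above all wildtype values. The difference was 0.60 ± 0.13 on the log2 scale (95% interval 0.30 to 0.90), or 1.51-fold, with an adjusted p of 0.023 in limma. At single stages the differences were 0.71, 0.44 and 0.63, none past the threshold, with adjusted p-values of 0.12, 0.21 and 0.10. Without the elys-set wildtype library of a stage, the Melys library of that stage also drops out of the comparison, and the 3-stage call was lost. Without that at 3 hpf the difference was 0.49 (adjusted p = 0.12), without that at 4 hpf 0.68 (adjusted p = 0.069) and without that at 4.5 hpf 0.61 (adjusted p = 0.11). Leaving out a whole stage also ended the call, with adjusted p-values of 0.11, 0.20 and 0.12 for 3, 4 and 4.5 hpf. Over all fits that left out a library or a stage, 147 to 1257 genes were called in Melys, against 1368 in the full fit. The nup133-set wildtype libraries had somewhat more ipo9 than the elys-set ones, and the elys set stood at -0.32 ± 0.10 relative to the nup133 set (adjusted p = 0.27).

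The ipo9 differences of both knockouts were thus opposite in sign, and the contrast between them was tested directly. The MZnup133 effect minus the Melys effect was -2.60 ± 0.19 (95% interval -3.03 to -2.18; adjusted p = 7.3e-05 in limma). It was the only one of 8 members past the threshold in that comparison, in which 5.27% of all genes passed (2.76% higher and 2.51% lower). Tgnup133 embryos had 33.8, 40.6 and 36.2 FPKM of ipo9 at 3, 4 and 4.5 hpf. At each stage this was below both wildtype libraries, at 3 hpf only just below the elys-set value of 34.0 FPKM. Across stages Tgnup133 embryos overlapped the elys-set range. Their difference of -0.51 ± 0.13 (95% interval -0.81 to -0.21) did not pass the threshold (adjusted p = 0.098). MZnup133 against Tgnup133, the 2 lines with opposite nup133 transcript levels, differed by -1.50 ± 0.13 for ipo9 (adjusted p = 0.00013).

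The transcript of ipo7 was higher in MZnup133 embryos, with 73.1, 86.6 and 76.2 FPKM at 3, 4 and 4.5 hpf. Wildtype embryos had 60.9, 57.1 and 33.6 FPKM in the nup133 set and 52.5, 45.9 and 30.0 FPKM in the elys set. All 3 MZnup133 values exceeded all 6 wildtype values, as for 13.1% of genes. The difference over 3 stages was 0.67 ± 0.20 (95% interval 0.22 to 1.12), or 1.59-fold, with an adjusted p of 0.042 in limma. At single stages it was 0.25, 0.63 and 1.12 at 3, 4 and 4.5 hpf, and only the last passed the threshold (adjusted p = 0.30, 0.053 and 0.019). Without any 1 wildtype library that last difference was 1.06 to 1.16, and its call was lost, as it was for every gene at that stage. Scaling the libraries by median ratios reduced the 3-stage difference to 0.48 (adjusted p = 0.067). The call was also lost with no filter on low values (adjusted p = 0.075) and with no variance trend (adjusted p = 0.069). It was lost without the nup133-set wildtype library at 3 hpf (0.75, adjusted p = 0.074), at 4 hpf (0.79, adjusted p = 0.078) or at 4.5 hpf (0.47, adjusted p = 0.20). Without the elys-set library at 4 hpf or at 4.5 hpf the difference stayed at 0.67, with adjusted p-values of 0.063 and 0.054. Without all 4 hpf libraries the adjusted p was 0.23, and without all 4.5 hpf libraries 0.30.

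In wildtype embryos ipo7 was the only member called lower at 4.5 hpf, while 5 of 8 differences from 3 hpf were positive and 3 negative. Among all genes 22.8% were called lower at 4.5 against 3 hpf and 3.23% at 4.5 against 4 hpf. At 4.5 hpf ipo7 averaged 31.8 FPKM over the 2 wildtype libraries, against 51.5 FPKM at 4 hpf and 56.7 FPKM at 3 hpf. The difference of 4.5 from 3 hpf was -0.81 ± 0.10 (adjusted p = 0.0070), and that of 4.5 from 4 hpf was -0.67 ± 0.10 (adjusted p = 0.048). The first call was lost without the nup133-set library at 3 hpf (-0.82) or at 4.5 hpf (-0.76). Without any 1 wildtype library the second difference was -0.73 to -0.61, and its call was lost, as it was for every gene. In MZnup133 embryos the same interval changed ipo7 by 0.06, and in Melys embryos, with 45.7, 57.0 and 41.5 FPKM, by -0.14. Against the wildtype change these differed by 0.87 ± 0.17 in MZnup133 (adjusted p = 0.10) and by 0.68 ± 0.17 in Melys (adjusted p = 0.21), neither past the threshold. In Tgnup133 embryos, with 61.1, 41.4 and 39.6 FPKM, the level over 3 stages was within error of wildtype (-0.07 ± 0.20; 95% interval -0.52 to 0.38; adjusted p = 0.92). MZnup133 exceeded Tgnup133 by 0.74 ± 0.20 (adjusted p = 0.025), which median-ratio scaling took to 0.48 (adjusted p = 0.057). Without the 4 hpf libraries it was 0.59 (adjusted p = 0.27) and without the 4.5 hpf libraries 0.65 (adjusted p = 0.14).

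Importin 4 was lower in Tgnup133 embryos than in matched wildtype, though not past the threshold, as ipo9 was. Tgnup133 embryos had 47.3, 46.4 and 41.5 FPKM of ipo4 at 3, 4 and 4.5 hpf. Wildtype embryos had 56.0, 61.3 and 72.4 FPKM in the nup133 set and 51.0, 53.1 and 56.7 FPKM in the elys set. All 3 Tgnup133 values lay below all 6 wildtype values, as for 4.34% of genes. The difference was -0.47 ± 0.12 (95% interval -0.75 to -0.20; adjusted p = 0.095). MZnup133 embryos had 61.7, 66.4 and 64.8 FPKM, within the wildtype range, and exceeded Tgnup133 by 0.51 ± 0.12 (adjusted p = 0.016). With median-ratio scaling that difference was 0.24 (adjusted p = 0.17). Without the 4 hpf libraries it was 0.50 (adjusted p = 0.19) and without the 4.5 hpf libraries 0.44 (adjusted p = 0.092). Melys embryos, with 54.5, 52.2 and 66.8 FPKM, overlapped wildtype (0.10 ± 0.12, adjusted p = 0.64).

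Transportin 3 was the steadiest member, and its highest library exceeded its lowest by 1.39 times. MZnup133 embryos had 181, 188 and 207 FPKM at 3, 4 and 4.5 hpf, Melys embryos 166, 183 and 209 FPKM, and Tgnup133 embryos 182, 217 and 222 FPKM. Wildtype embryos had 182, 217 and 230 FPKM in the nup133 set and 179, 208 and 230 FPKM in the elys set. In wildtype the level at 4.5 hpf exceeded that at 3 hpf by 0.35 ± 0.07 (adjusted p = 0.021 in limma). Transportin 3 was the only member called higher there without median-ratio scaling, where 14.1% of all genes were called higher. That call was lost with the same FPKM sum in every library (0.25, adjusted p = 0.057), with no variance trend (adjusted p = 0.12) and without any 1 of the 6 wildtype libraries (0.33 to 0.37, adjusted p 0.075 to 0.12). Both knockouts were slightly under the matched wildtype at all 3 stages. The differences were -0.12 ± 0.08 in MZnup133 (95% interval -0.29 to 0.05) and -0.14 ± 0.08 in Melys (95% interval -0.32 to 0.03), with adjusted p-values of 0.27 and 0.26.

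Transportin 1 was at 7.16, 7.87 and 9.29 FPKM in MZnup133 embryos, below the matched wildtype at each stage. Wildtype embryos had 7.85, 13.6 and 11.99 FPKM in the nup133 set and 10.9, 16.8 and 13.9 FPKM in the elys set. The ranges overlapped across stages, through the wildtype value of 7.85 FPKM at 3 hpf, and the difference of -0.39 ± 0.21 did not pass the threshold (95% interval -0.85 to 0.07; adjusted p = 0.19). Against both wildtype libraries of a stage, with no control set term, it was -0.54 and passed (adjusted p = 0.040). Tgnup133 embryos had 8.55, 8.43 and 8.86 FPKM, with a difference of -0.31 ± 0.21 (adjusted p = 0.56). Melys embryos had 8.13, 13.6 and 15.5 FPKM, with a difference of -0.18 ± 0.21 (adjusted p = 0.62).

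The transcript of kpnb1, the general carrier, passed the threshold in no comparison. It was at 57.7, 56.9 and 45.2 FPKM in MZnup133 embryos, 53.3, 43.5 and 41.5 FPKM in Melys embryos and 79.7, 45.6 and 63.3 FPKM in Tgnup133 embryos. Wildtype embryos had 66.4, 46.1 and 46.7 FPKM in the nup133 set and 54.6, 48.2 and 52.8 FPKM in the elys set, and all groups overlapped. The differences over 3 stages had 95% intervals of -0.34 to 0.37 in MZnup133, -0.53 to 0.18 in Melys and -0.13 to 0.58 in Tgnup133.

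Importin 11 was above the matched wildtype at 3 of 3 stages in MZnup133 embryos, at 15.96, 18.2 and 19.5 FPKM. Wildtype embryos had 12.96, 14.4 and 15.1 FPKM in the nup133 set and 11.4, 16.4 and 18.9 FPKM in the elys set, so the ranges overlapped. The difference was 0.32 ± 0.15 (95% interval -0.03 to 0.66; adjusted p = 0.16). Melys embryos spanned 11.3 to 23.7 FPKM and Tgnup133 embryos 12.2 to 13.7 FPKM, with differences of 0.18 and -0.10 and adjusted p-values of 0.50 and 0.83.

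Importin 8 was the least abundant member, at 2.005 to 3.86 FPKM in MZnup133, 3.11 to 4.89 FPKM in Melys, 2.59 to 3.76 FPKM in Tgnup133 and 1.44 to 4.82 FPKM in wildtype. Its wildtype libraries were lower in the nup133 set than in the elys set at each stage, with the elys set at 0.78 ± 0.26 above (adjusted p = 0.30). Differences from wildtype were 0.43 ± 0.32 in MZnup133, -0.12 ± 0.32 in Melys and 0.38 ± 0.32 in Tgnup133, with 95% intervals as wide as -0.28 to 1.14 in MZnup133. At this level a change could not be resolved.

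**Figure D2:**
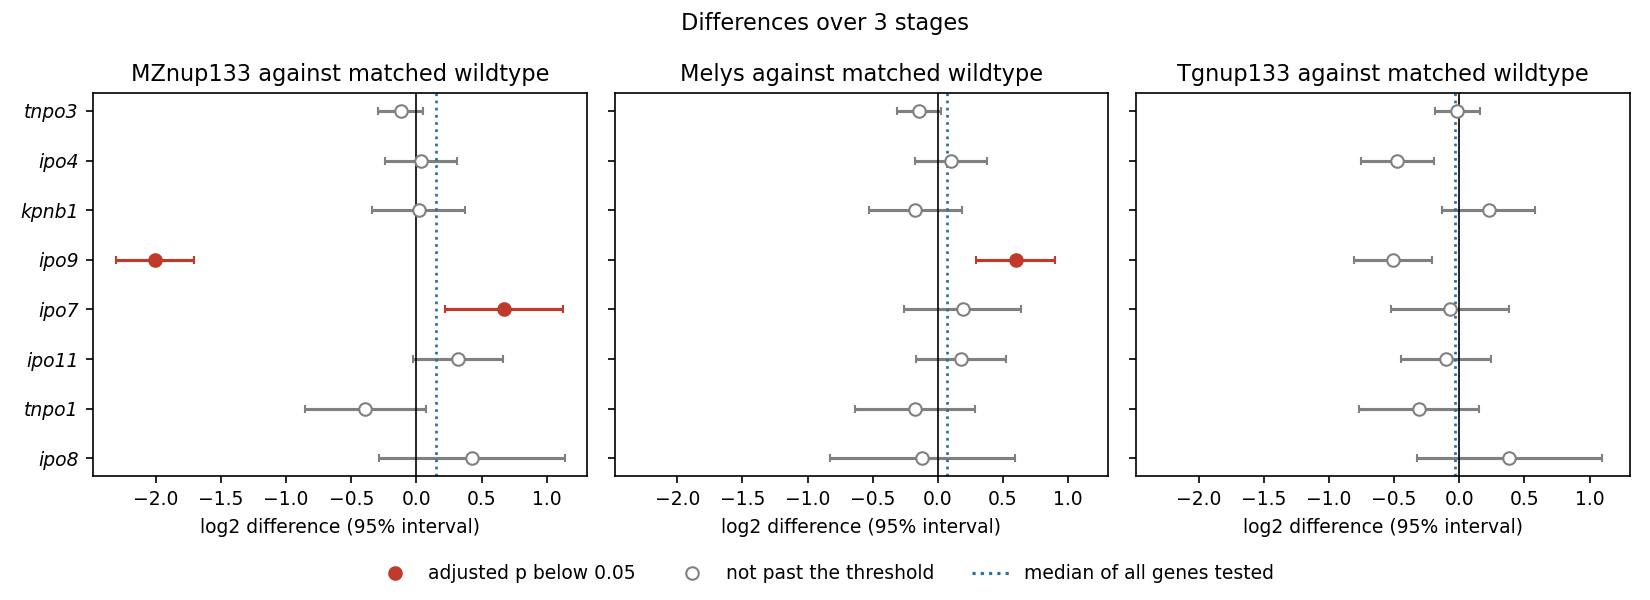
Differences from matched wildtype over 3 stages on the log2(FPKM + 1) scale (horizontal axis), with 95% intervals, for the 8 receptors in MZnup133, Melys and Tgnup133. Filled points have an adjusted p below 0.05: ipo9 at -2.01 and ipo7 at 0.67 in MZnup133 and ipo9 at 0.60 in Melys; the dotted line is the median of all genes tested.

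Taken as counts, 2 of 8 members passed the threshold in MZnup133 over 3 stages, 1 in each direction, where 22.0% of all genes passed (13.7% higher and 8.32% lower). In Melys 1 of 8 passed, in the higher direction, where 10.1% of genes passed (5.48% higher and 4.65% lower). In Tgnup133 limma called 0 of 8, where 1.95% of genes passed (0.800% higher and 1.15% lower). An unadjusted p below 0.05 was held by 2 members there, and by 1998 of the 13493 genes. MZnup133 against Tgnup133 gave 3 of 8, 2 higher and 1 lower, where 28.6% passed (19.0% higher and 9.62% lower). With 8 genes, 1 gene more or fewer would put each share on the other side of its background. The median difference of the members was 0.02 in MZnup133, against 0.15 over all genes, -0.01 in Melys, against 0.07, and -0.09 in Tgnup133, against -0.04. Median-ratio scaling shifted the median of all genes by -0.17 in MZnup133 and changed the share of called genes that were higher to 45.7%, against 62.2% without scaling. In Melys the same share was 42.6% with the scaling, against 54.1% without it, and between MZnup133 and Tgnup133 44.3%, against 66.4%. Separate ranges in the other directions were held by 0 members, with all Melys values below wildtype for 5.72% of genes and all Tgnup133 values above it for 2.65%. Relative to the median of all genes, ipo9 stood at -2.15 and ipo7 at 0.52 in MZnup133, and at -2.17 and 0.50 after that scaling.

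At single stages MZnup133 had 1, 1 and 2 members past the threshold at 3, 4 and 4.5 hpf, where 3.00%, 9.86% and 21.5% of genes passed. Melys had 0 of 8 in limma at each stage, where 1.15%, 1.70% and 2.97% passed. Unadjusted p-values below 0.05 were held by 1, 1 and 2 members, and by 2824, 3195 and 3909 of the 13493 genes. Tgnup133 likewise had 0 of 8 in limma at each stage, where 0.0148%, 0.0445% and 0.0296% passed. Its unadjusted p-values were below 0.05 for 0, 4 and 2 members, and for 1617, 2000 and 2066 of all genes. In wildtype, 2 of 8 members passed at 4.5 against 3 hpf, where 37.0% of genes did. The member that passed at 4.5 against 4 hpf was ipo7, which was lower, as were 3.23% of genes. For the change between 3 and 4.5 hpf set against that in wildtype, limma called 0 of 8 in each line. In MZnup133 0.0889% of genes passed. In Melys and in Tgnup133 0 of the 13493 genes passed, so the count of 0 members there is not particular to them. For this change 1, 1 and 0 members had an unadjusted p below 0.05 in MZnup133, Melys and Tgnup133. Among all genes 3120, 2282 and 1009 did. Between the wildtype control sets limma called 0 of 8, where 0.00741% passed. There 4 members had an unadjusted p below 0.05, as did 2056 of the 13493 genes. At 4 against 3 hpf in wildtype limma called 0 of 8, where 6.94% of genes passed. There 2 members had an unadjusted p below 0.05, as did 3427 of the 13493 genes. The median change of the members at 4.5 against 3 hpf was 0.30, against -0.16 over all genes. Median-ratio scaling shifted that median of all genes by 0.24 and moved the higher share of called genes to 56.5%, against 38.3% without scaling. It called 6 members, with tnpo1, ipo4, ipo9 and ipo11 added, all higher at 4.5 hpf. Among all genes it called 3062 higher and 2355 lower, against 1909 and 3077 without scaling.

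**Figure D3:**
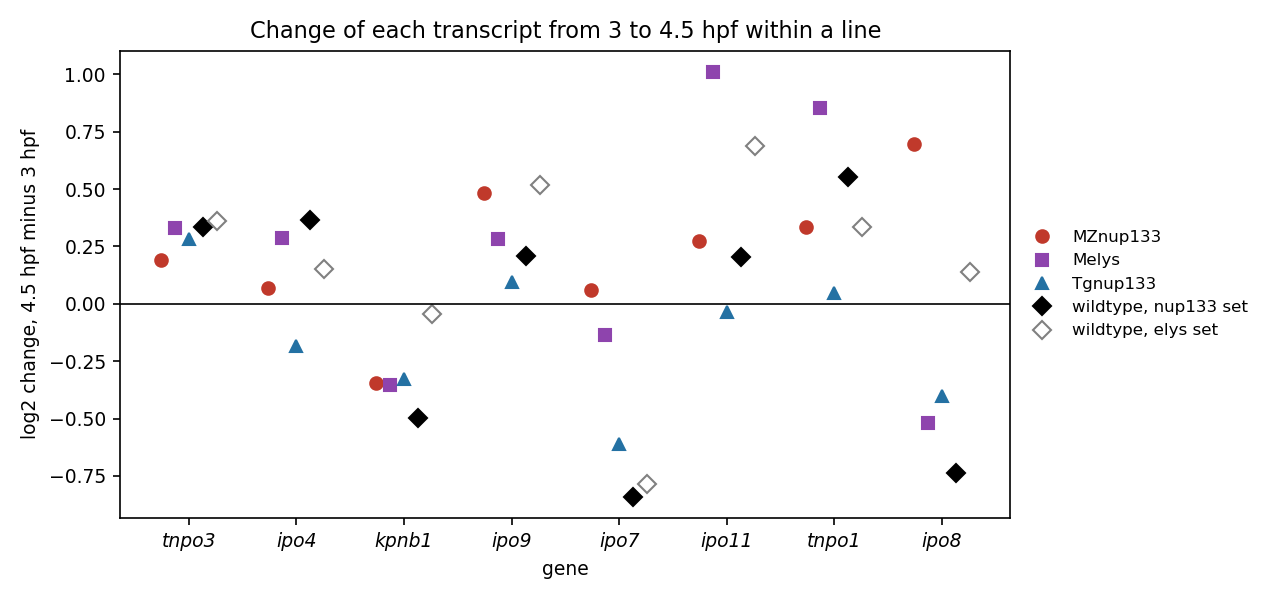
Change on the log2(FPKM + 1) scale at 4.5 against 3 hpf (vertical axis) for each receptor, 1 point per line or wildtype control set, each from 1 library per stage. Both wildtype sets of ipo7 lie near -0.81 while MZnup133 lies at 0.06 and Melys at -0.14; all 5 points of tnpo3 lie above 0.

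Among the other import receptors, ipo13 was higher in both knockouts. In mammalian cells its product both imports and exports cargo. At 3, 4 and 4.5 hpf the transcript was at 13.03, 11.9 and 11.98 FPKM in MZnup133 embryos. Melys embryos held 16.5, 13.2 and 11.7 FPKM and the 6 wildtype libraries 5.21 to 8.40 FPKM, with no overlap. All values lay above all wildtype values for 13.1% of genes in MZnup133 and 9.01% in Melys. The ipo13 difference was 0.72 ± 0.20 in MZnup133 (adjusted p = 0.034) and 1.16 ± 0.20 in Melys (adjusted p = 0.0071). The MZnup133 call was lost with median-ratio scaling (0.54, adjusted p = 0.067), without any 1 nup133-set wildtype library (0.70 to 0.73, adjusted p 0.088 to 0.11), without the elys-set library at 4 hpf (0.72, adjusted p = 0.053) and without any 1 stage (0.60 to 0.78, adjusted p 0.060 to 0.25). The Melys call was lost without the elys-set library at 3 hpf (1.05, adjusted p = 0.051) or 4 hpf (1.15, adjusted p = 0.054) and without any 1 stage (1.05 to 1.29, adjusted p 0.052 to 0.20). Neither kpnb3 nor tnpo2 passed in any of the 3 lines. Both rose in wildtype between 3 and 4.5 hpf, by 0.49 ± 0.06 (adjusted p = 0.0084) and by 0.34 ± 0.07 (adjusted p = 0.024). The call of kpnb3 was lost without the nup133-set library at 3 hpf (0.49, adjusted p = 0.070), the elys-set library at 3 hpf (0.49, adjusted p = 0.057) or the nup133-set library at 4.5 hpf (0.49, adjusted p = 0.054). That of tnpo2 was lost without any 1 wildtype library (0.29 to 0.40, adjusted p 0.072 to 0.15). The remaining tested receptor, tnpo2b, is listed in the file under a clone name and was matched by identifier. It spanned 31.0 to 76.0 FPKM in wildtype and passed in none of these comparisons.

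Partners of the receptors were counted from lists chosen with earlier results known. Of 8 importin alpha genes and other adaptors, the partners of kpnb1, 1 was higher and 0 lower in MZnup133 in limma. Among all genes 13.7% were higher and 8.32% lower. The median difference of the 8 was 0.09. The higher gene was kpna7, an importin alpha of oocytes and early embryos. It was at 278, 204 and 128 FPKM in MZnup133, against 126, 54.5 and 27.7 FPKM in the nup133-set wildtype (1.73 ± 0.26, adjusted p = 0.0023). Of 11 genes of the Ran cycle, which drives cargo release, 1 was higher and 2 were lower in MZnup133, where 22.0% of all genes passed. The counts were the same in Melys, where 10.1% of all genes passed. The higher gene was ranbp3a in MZnup133 (0.90 ± 0.21, adjusted p = 0.015 in limma) and RANBP2 in Melys (0.74 ± 0.13, adjusted p = 0.0064). The transcript of ran itself was lower in both lines, by -0.43 ± 0.12 in MZnup133 (adjusted p = 0.032) and by -0.62 ± 0.12 in Melys (adjusted p = 0.012). Leaving out the 4 hpf libraries took the adjusted p of ran to 0.26 in MZnup133 and 0.21 in Melys, and leaving out any 1 library of the matched wildtype set also ended its call in either line. The gene ranbp1, a cofactor of GTP hydrolysis by Ran, was at -0.57 ± 0.08 in MZnup133 (adjusted p = 0.0019). Of 10 tested FG nucleoporins and basket genes, which the receptors touch in the pore, 1 was higher and 2 lower in MZnup133. In Melys 2 were lower and in Tgnup133 1 was lower. The shares over all genes were 13.7% higher and 8.32% lower in MZnup133, 4.65% lower in Melys and 1.15% lower in Tgnup133. The exportins, relatives that carry cargo out of the nucleus, had 1 of 8 tested genes lower in MZnup133 and 1 higher in Melys. Among all genes 8.32% were lower in MZnup133 and 5.48% higher in Melys. The lower gene was xpo6 (-6.41 ± 0.42, adjusted p = 1.8e-05). The higher gene was xpot, an exporter of tRNA (0.47 ± 0.12, adjusted p = 0.036). That xpot call was lost in 8 of 9 fits that left out a library or a stage. The gene nup42, at the cytoplasmic face of the pore, was at -1.55 ± 0.22 in Melys (adjusted p = 0.0023).

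Cargo classes were counted the same way. Of 17 tested genes of serine- and arginine-rich splicing factors, the cargo class of transportin 3, 11 were higher and 0 lower in wildtype at 4.5 against 3 hpf in limma, where 14.1% of all genes were higher and 22.8% lower. Their median change was 0.61, against -0.16 over all genes, and srsf5a had the largest at 3.54 ± 0.11 (adjusted p = 9.0e-04). In MZnup133 1 of them was higher and 4 lower, where 13.7% of all genes were higher and 8.32% lower. Among the lower was srsf3a at -0.78 ± 0.16 (adjusted p = 0.010), and the median of the 17 was -0.23. Of 14 tested genes of PY-signal RNA-binding proteins, the cargo class of transportin 1, 10 were higher and 0 lower in wildtype at 4.5 against 3 hpf, with a median of 0.85. In MZnup133 3 of the 14 were lower and 0 higher, with a median of -0.31, where 8.32% of all genes were lower and 13.7% higher. In Melys 2 were lower and 0 higher, where 4.65% of all genes were lower and 5.48% higher. Among the 2 was fus at -1.86 ± 0.25 (adjusted p = 0.0017), called in every fit that left out a library or a stage. Without the 4 hpf libraries, kpna7, ranbp1 and srsf3a in MZnup133 and nup42 in Melys kept their direction but lost their calls (adjusted p = 0.11, 0.11, 0.15 and 0.10), and ranbp1 also lost its call without the 4.5 hpf libraries (adjusted p = 0.056). Without any 1 wildtype library, fewer of the 17 and of the 14 were called in wildtype at 4.5 against 3 hpf, as were fewer of all genes tested.

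Over the 15 libraries the members did not move as a block. Among the 28 pairs of members Pearson's r of log2(FPKM + 1) ran between -0.71 for ipo7 with ipo9 and 0.60 for tnpo1 with ipo9, and 12 of the 28 were negative. The libraries share lines and stages, so these are descriptions. Among 8925 genes that averaged 5 FPKM or more and had no value of 0, the pattern of ipo9 was most like that of bckdha (r = 0.96) and of timm17a (r = 0.96), an inner membrane translocase component of mitochondria. That of tnpo3 was most like cdkn1ca (r = 0.97) and srsf5a (r = 0.96), and that of ipo7 most like fyco1a (r = 0.95) and spout1 (r = 0.95). For ipo4 the closest was stat5b (r = 0.91), for tnpo1 trappc12 (r = 0.88) and for ipo11 inka1b (r = 0.88). The closest genes to ipo8 and kpnb1 reached only 0.79 (fkrp) and 0.75 (dnmbp).

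The genes beside each member on its chromosome were then read, a look chosen after the values of ipo9 had been seen. The order of genes came from the RefSeq annotation of the assembly GRCz12tu, which is not the authors' build, and the 3 nearest tested protein-coding genes on each side were taken, except that kpnb1 had 2 on one side, which makes 47 in all. On one side of ipo9 the nearest tested genes were shisa4 and then timm17a, and both were lower in MZnup133 embryos as ipo9 was. The transcript of timm17a was at 8.28, 4.37 and 5.02 FPKM in MZnup133 embryos at 3, 4 and 4.5 hpf. Melys embryos had 67.5, 83.6 and 82.1 FPKM and Tgnup133 embryos 30.7, 41.3 and 38.4 FPKM. Wildtype embryos had 50.1, 59.5 and 54.7 FPKM in the nup133 set and 22.4, 37.1 and 28.0 FPKM in the elys set. All MZnup133 values of timm17a were thus below all wildtype values, as for 6.76% of genes. All its Melys values were above them, as for 9.01% of genes. The differences were -3.06 ± 0.22 in MZnup133 (adjusted p = 3.1e-05) and 1.41 ± 0.22 in Melys (adjusted p = 0.0038), in the same directions as those of ipo9. As for ipo9, the elys-set wildtype had less timm17a than the nup133 set at each stage. The Melys difference is set against that lower set and would be smaller against the nup133 set. The MZnup133 call of timm17a held in every fit that left out a library or a stage, and its Melys call was lost without the 4 hpf libraries (1.54, adjusted p = 0.079) or the 4.5 hpf libraries (1.35, adjusted p = 0.094).

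The transcript of shisa4 was listed at 0 in all 3 MZnup133 libraries and at 1.54 to 6.13 FPKM in the 6 wildtype libraries (adjusted p = 0.0016; 0.085 without the 4 hpf libraries). The next tested gene after timm17a, sulf2a, did not pass in MZnup133 (0.43 ± 0.38, adjusted p = 0.42 in limma). On the other side of ipo9 the nearest tested gene, kdm5ba, did not pass (-0.79 ± 0.28, adjusted p = 0.071), nor did rabif, and adipor1a was higher (1.49 ± 0.47, adjusted p = 0.049), a call lost in 8 of 9 fits that left out a library or a stage. Whether these genes overlap in the authors' annotation, and whether reads were counted by strand, is not given in the sources used here, so reads of overlapping neighbours cannot be told apart. Beside ipo7, 4 of 6 neighbours were higher in MZnup133, dhcr7, dennd5a, tmem41b and bco1, by 0.84 to 1.17, where 13.7% of all genes were higher. All 4 lost the call without the 4 hpf libraries (adjusted p 0.12 to 0.21). Beside ipo11, which was itself not called, 3 of 6 neighbours were also higher in MZnup133. Called neighbours also lay beside members that were not called in Melys. There bco1 (1.92 ± 0.29) and dhcr7 (0.97 ± 0.19) beside ipo7 were higher, as were lsm8 (3.35 ± 0.60) and hspa14 (2.09 ± 0.15) beside ipo8. Beside ipo4, not called in either knockout, pdcd6 was lower in MZnup133 (-1.64 ± 0.29) and in Melys (-1.50 ± 0.29). Over all members 13 of 47 neighbours passed in MZnup133, which is 27.7%, where 22.0% of all genes did. In Melys 6 of 47 passed, which is 12.8%, where 10.1% of all genes did. In Tgnup133 limma called 0 of 47, where 1.95% of all genes passed. An unadjusted p below 0.05 was held there by kdm5ba (-0.75), rabif (-0.69), shisa4 (-0.79) and timm17a (-0.57) beside ipo9. It was not held by adipor1a (0.17) or sulf2a (-0.24). Beside other members bola3, lsm8 and hspa14 held one, as did 1998 of the 13493 genes. The part of position in the ipo9 difference was not tested.

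**Figure D4:**
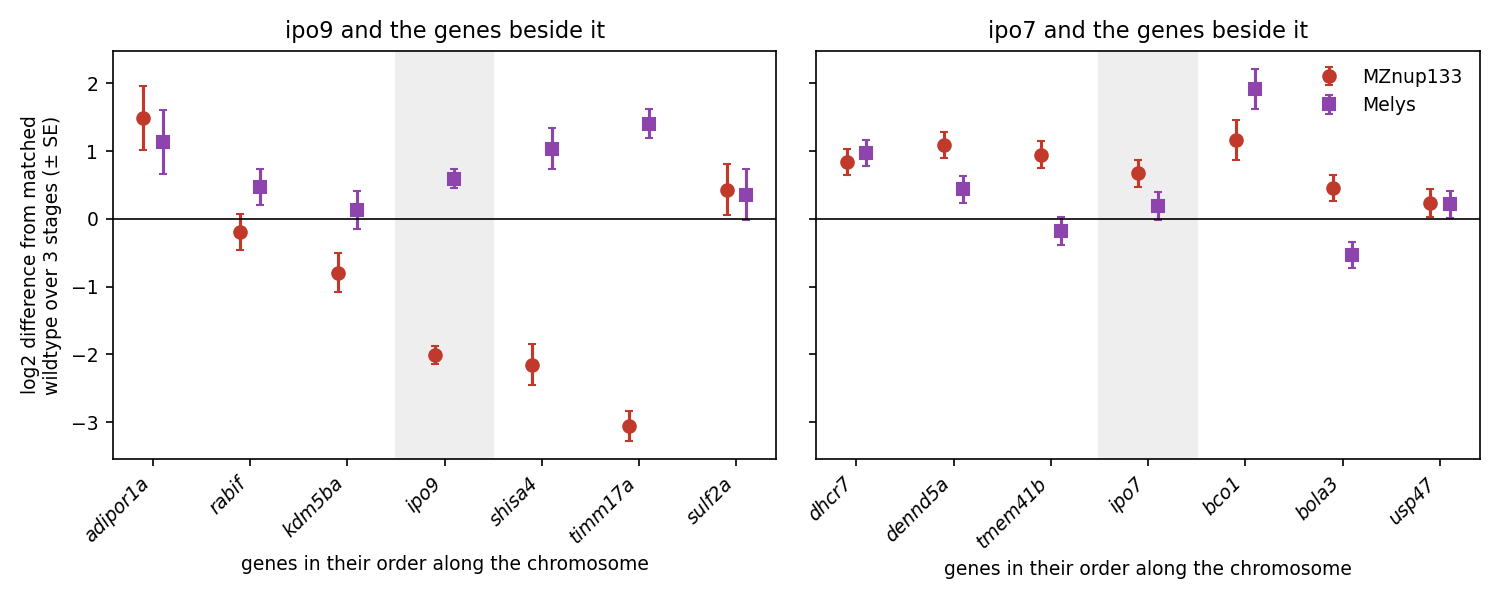
Differences from matched wildtype over 3 stages on the log2(FPKM + 1) scale (vertical axis, ± SE) for ipo9 and ipo7 (shaded) and the 3 nearest tested genes on each side, in order along the chromosome; spacing is not to scale. Beside ipo9, shisa4 at -2.15 and timm17a at -3.06 in MZnup133 lie low with ipo9 at -2.01, and timm17a in Melys lies high at 1.41.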

How the data were processed

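The authors deposited a single table with the FPKM of each gene in each library. Its processing used Trim Galore, STAR 2.5.3a and Cufflinks 2.2.1 with the genome build GRCz11, per the submitters' processing notes; the order, options and annotation were not given in the sources used here. Of 23800 lines, 74 repeats were dropped. Wildtype columns name genotype and stage only, so each took its control set from the leading number it shares with mutant columns.

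The 13493 genes averaging 1 FPKM or more were tested on log2(FPKM + 1), which understates changes of low genes. Limma 3.58.1 (R 4.3.3) gave moderated two-sided tests; the prior variance followed mean level, and p-values were adjusted by Benjamini-Hochberg over all of these genes (threshold 0.05). The 3-stage fit had 6 levels for control set and stage and 1 effect per line (6 residual degrees of freedom). Single stages and wildtype changes were fitted as group means with a control set term, with 2 residual degrees of freedom from the wildtype pairs, so each lone library was assumed to vary like them. The fits were tested on simulated data. Alternatives were another pseudocount, filter, scaling, variance prior or control set term, and leaving out libraries.

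The 8 members and the gene lists were chosen with earlier results of these data known. Genes named from a list were taken, per list and comparison, from those called with the largest differences, up to 2 in each direction; likeness names the closest genes by Pearson's r.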

Additional observations from a re-analysis of the deposited data

Results flagged for a closer look

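The effect on ipo9 differed between both knockouts. The MZnup133 effect minus the Melys effect over 3 stages was -2.60 ± 0.19 on the log2(FPKM + 1) scale, with MZnup133 at -2.01 (lower at 3 of 3 stages) and Melys at 0.60 (higher at 3 of 3 stages). The difference itself was tested with limma (adjusted p = 7.3e-05), ranged between -2.69 and -2.29 over 9 other settings, and between -2.72 and -2.46 when 1 wildtype library or 1 stage was left out (adjusted p up to 0.031). No other member passed in this comparison.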

How the results depend on the processing

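Across 9 other settings and the left-out libraries and stages, 4290 single-gene values were recomputed. Of these 3822 kept their side of the threshold, 455 lost a call, 13 gained one and 0 called values changed sign, while 131 uncalled ones did. The 3-stage ipo9 call in MZnup133 held in all of them (-2.19 to -1.73). Depth and the lone library per line and stage limit the rest, and the cause of the changes below was not tested.

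Counts of members changed as follows. Members past the threshold in MZnup133 over 3 stages were 1 in place of 2 with no filter, median-ratio scaling or no variance trend. In MZnup133 at 4 hpf they were 2 in place of 1 with a pseudocount of 5, a mean of at least 5 FPKM or the same FPKM sum. For wildtype 4.5 against 4 hpf they were 0 in place of 1 with a pseudocount of 0.1, no filter, median-ratio scaling, no variance trend or no control set term. For wildtype 4.5 against 3 hpf they were 6 with median-ratio scaling and 1 with the same FPKM sum or no variance trend, in place of 2. For the MZnup133 minus Melys effect they were 2 in place of 1 with no control set term, ipo7 being added.

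Counts of genes past the threshold moved as follows, where a change means 4.5 minus 3 hpf set against that in wildtype. With a pseudocount of 0.1 Melys had 120 at 4 hpf and 138 at 4.5 hpf, Tgnup133 1 at 3 hpf, wildtype 4.5 against 4 hpf 0, and the change in MZnup133 5. With a pseudocount of 5 MZnup133 had 611 at 3 hpf, Melys 740 at 4.5 hpf, Tgnup133 5 at 3 hpf, wildtype 4.5 against 4 hpf 1050, and the changes in MZnup133 and Melys 58 and 14. With no filter MZnup133 had 695 at 4 hpf and 1084 at 4.5 hpf, Melys 257, 440 and 955 at 3, 4 and 4.5 hpf, and Tgnup133 255, 344 and 580. Wildtype then had 80 at 4 against 3 hpf, 0 at 4.5 against 4 hpf and 2723 at 4.5 against 3 hpf, the changes in MZnup133, Melys and Tgnup133 648, 679 and 641, and the control sets 0. With a mean of at least 5 FPKM MZnup133 had 794 at 3 hpf, Melys 443, 571 and 1030, Tgnup133 49, 38 and 32, wildtype 4.5 against 4 hpf 1580, the changes in MZnup133 and Melys 288 and 4, and the control sets 25. With no variance trend MZnup133 had 269 at 3 hpf, Melys 76, 129 and 191, Tgnup133 0 at 4.5 hpf, and wildtype 4.5 against 4 hpf and the control sets 0. With no control set term Melys and Tgnup133 had 2562 and 606 over 3 stages, MZnup133 minus Melys 1923, Tgnup133 6 and 17 at 3 and 4 hpf, wildtype 4.5 against 4 hpf 353, and the changes in MZnup133 and Melys 59 and 2.

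Leaving out 1 wildtype library or 1 stage gave 232 to 4020 genes and 1 to 2 members for MZnup133 over 3 stages, 147 to 1257 and 0 to 1 for Melys, 1 to 238 genes for Tgnup133, 46 to 461 for MZnup133 minus Melys, and 258 to 5172 genes and 1 to 4 members for MZnup133 against Tgnup133. Without 1 wildtype library every single-stage count was 0 for MZnup133 and Tgnup133, 0 to 7, 0 to 4 and 0 for Melys at 3, 4 and 4.5 hpf, 0 to 164 for wildtype 4 against 3 hpf, 0 for 4.5 against 4 hpf, and 1304 to 3189 genes and 0 to 1 members for 4.5 against 3 hpf. The change in MZnup133 and the control sets then had 0. The 3-stage fit matched each line to the wildtype library of its own control set and stage, and the values with no control set term are those without this matching.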
